A study of Mus musculus with 10 samples.

Results

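The guanylate-binding protein (GBP) genes of the mouse were examined as a family of 10 members, Gbp2 to Gbp11, out of 23152 genes measured on the arrays. The members were taken by gene symbol, after the CD127+ and CD127- lymphoid-primed multipotent progenitors (LMPPs) had been seen to differ in Gbp8. The family was thus chosen by that difference, so values of the comparison of CD127+ with CD127- LMPPs are a description of the members, with no p-value. Each gene value is the mean of the probe sets annotated to that symbol alone, on a scale read as log2, and all 10 members had at least 1 such probe set. No filter on low values was applied before testing.

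GBPs are large GTPases of the dynamin superfamily whose genes are strongly induced by interferon gamma. In infected macrophages and other cells they gather on the vacuoles and membranes of intracellular bacteria and parasites, help to break them open, and bring their contents to inflammasomes. Mouse GBP genes lie in a pair of clusters on chromosomes 3 and 5, and the near copies within a cluster arose by duplication. Lymphoid priming in bone marrow is known for the onset of Il7r, Flt3-dependent growth and early lymphoid genes in cells that still have other fates.

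Sorted bone marrow cells of adult C57BL/6 mice were hybridised as biotin-labelled total RNA in 4 groups, none of them treated. Ly6D+ common lymphoid progenitors (CLPs, 2 arrays) and Ly6D- CLPs (2 arrays) carried no lineage markers, little cKit and Sca-1, and much Flt3, and were positive for CD127, the interleukin 7 receptor alpha chain. CD127+ LMPPs (3 arrays) and CD127- LMPPs (3 arrays) also carried no lineage markers, and much cKit, Sca-1 and Flt3. Flow sorting on surface proteins thus defined all 4 groups. The study set the LMPP subsets against each other and against CLPs. Whether replicates came from separate animals or sorts is not in the labels. The p-values therefore cover the spread among these arrays, which may be technical, and the number of arrays limits the precision. In such bulk samples, fewer cells of a type and less RNA per cell cannot be told apart.

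The sort markers were read first. Il7r, which encodes CD127, averaged 9.64 in Ly6D+ CLPs, 9.31 in Ly6D- CLPs and 9.10 in CD127+ LMPPs, against 4.32 in CD127- LMPPs. Ly6d averaged 11.33 in Ly6D+ CLPs, 5.88 in Ly6D- CLPs, 8.67 in CD127+ LMPPs and 4.76 in CD127- LMPPs. Both genes therefore ran in the order of their gates, and CD127+ LMPPs, which were not gated on Ly6D, lay between the CLP groups in Ly6d. Kit was lower in the CLP groups, at 7.05 and 7.62, than in CD127+ LMPPs at 8.33 and CD127- LMPPs at 8.70. Ly6a, which encodes Sca-1, averaged 6.30, 5.51, 7.02 and 5.82 in the same order and passed the test in none of the 4 comparisons of CLPs with LMPPs. The 7 measured T cell markers averaged between 3.89 and 4.32 on every array, under the low-signal limit. That limit, 4.43 for genes, is the 95th percentile of 1423 sensory receptor genes, which marrow cells are not known to use. Cd5 of the T cell list was above it in all groups, at 6.64 in Ly6D+ CLPs, 6.62 in Ly6D- CLPs, 5.97 in CD127+ LMPPs and 5.31 in CD127- LMPPs. Compared with CD127- LMPPs, Cd5 was higher by 1.33 log2 in Ly6D+ CLPs (limma, adjusted p = 0.00482) and by 1.30 in Ly6D- CLPs (adjusted p = 0.00835). Mature granulocyte markers averaged 6.34 to 7.07 on the CD127+ LMPP arrays, against 4.63 to 5.61 on the CD127- LMPP arrays, and 4.81 to 5.33 on the CLP arrays. Erythroid markers averaged 5.68 to 6.31 in CD127+ LMPPs, against 4.86 to 5.03 in CD127- LMPPs. The part of these markers in the differences between the LMPP groups was not tested. In the CLP groups the erythroid list averaged 4.58 to 4.89, so both lists were below their CD127+ LMPP level there. B cell markers averaged 5.88 to 6.02 in Ly6D+ CLPs, 5.03 to 5.20 in Ly6D- CLPs and 4.91 to 5.22 in CD127+ LMPPs, against 4.67 to 5.01 in CD127- LMPPs. Against CD127- LMPPs, 4 of the 7 measured were higher in Ly6D+ CLPs, with Blk at 3.61 log2 (adjusted p = 0.000129) and Cd79a at 2.16 (adjusted p = 0.0013), and 2 of 7 in Ly6D- CLPs. Over all genes 3.93% were higher in the first of these comparisons and 2.93% in the second. Macrophage and monocyte markers ran the other way, with averages of 4.63 to 4.64 in Ly6D+ CLPs, 4.84 to 4.92 in Ly6D- CLPs and 4.96 to 5.05 in CD127+ LMPPs, against 5.32 to 5.69 in CD127- LMPPs. Of these 12 markers 5 were lower in each CLP group than in CD127- LMPPs, among them Csf1r with a log2 difference of -2.15 (adjusted p = 3.99e-05) and Cd68 with -1.64 (adjusted p = 0.000156) in Ly6D+ CLPs. Over all genes 6.94% were lower in Ly6D+ CLPs and 4.17% in Ly6D- CLPs. The NK cell and type 1 lymphocyte list averaged 5.20 to 5.35 in Ly6D+ CLPs, 5.14 to 5.17 in Ly6D- CLPs and 5.02 to 5.27 in CD127+ LMPPs. In CD127- LMPPs it averaged at most 5.10. Of these 10 markers 3 were higher in Ly6D+ CLPs than in CD127- LMPPs, Gzmb by 1.34, Klrd1 by 0.97 and Prf1 by 0.66, and none was lower. In Ly6D- CLPs Gzmb was higher than in CD127- LMPPs, by 0.92, and Nkg7 was lower, at -0.56. Against CD127+ LMPPs, Nkg7 was lower in both CLP groups, at -0.97 in Ly6D+ CLPs and -1.08 in Ly6D- CLPs. Dendritic cell markers averaged 5.99 to 6.14 in Ly6D+ CLPs, 5.93 to 6.03 in Ly6D- CLPs, 5.74 to 5.87 in CD127+ LMPPs and 5.77 to 5.92 in CD127- LMPPs. Of these 11 markers 2 were higher and 2 lower in each CLP group than in CD127- LMPPs, namely Siglech, Bst2, Clec9a and Itgax. Bst2 was among the lower ones, at -0.56 in Ly6D+ CLPs and -0.80 in Ly6D- CLPs. The part of Cd5 and of the B cell, macrophage and monocyte, NK cell and dendritic cell lists in the differences between CLPs and CD127- LMPPs was not tested.

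The 6 members on chromosome 5 had group means above the low-signal limit in Ly6D+ CLPs, Ly6D- CLPs and CD127+ LMPPs, and under it in CD127- LMPPs. Gbp8 read 8.53 and 8.47 in Ly6D+ CLPs, 8.28 and 7.26 in Ly6D- CLPs, 6.14, 6.62 and 7.68 in CD127+ LMPPs, and 2.28, 3.45 and 3.94 in CD127- LMPPs. All CD127- LMPP arrays lay below the others, while Ly6D- CLPs and CD127+ LMPPs overlapped. The group means were 8.50 ± 0.04 (SD, n = 2), 7.77 ± 0.72 (SD, n = 2), 6.81 ± 0.79 (SD, n = 3) and 3.22 ± 0.85 (SD, n = 3), in the order Ly6D+ CLP, Ly6D- CLP, CD127+ LMPP and CD127- LMPP. That order of groups is kept in the sentences that follow.

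Gbp9 read 7.08 and 7.45 in Ly6D+ CLPs, 6.56 and 6.96 in Ly6D- CLPs, 5.51, 5.80 and 5.98 in CD127+ LMPPs, and 3.48, 3.77 and 4.36 in CD127- LMPPs. No groups of arrays overlapped, and their means fell in the same order as those of Gbp8. Gbp6, measured by 1 probe set, read 7.32 and 7.28 in Ly6D+ CLPs, 6.56 and 6.42 in Ly6D- CLPs, 5.22, 5.39 and 6.10 in CD127+ LMPPs, and 3.79, 2.99 and 4.48 in CD127- LMPPs. Its 4 groups did not overlap either, and 1 of the 3 CD127- LMPP arrays stood just above the limit.

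Gbp4, whose product has been reported in the mouse to restrain the transcription factor IRF7, read 7.30 and 6.83 in Ly6D+ CLPs and 7.16 and 7.36 in Ly6D- CLPs. Its values in the LMPP groups were 6.11, 6.34 and 6.39 in CD127+ cells, against 4.20, 4.09 and 4.48 in CD127- cells. The CLP groups overlapped each other and lay above both LMPP groups. Gbp10 read 6.59 and 7.02 in Ly6D+ CLPs, 5.64 and 5.72 in Ly6D- CLPs, 5.59, 5.62 and 5.72 in CD127+ LMPPs, and 2.80, 4.52 and 4.54 in CD127- LMPPs. On the gene value, Ly6D+ CLPs alone lay above the rest and Ly6D- CLPs overlapped CD127+ LMPPs. Its probe sets did not all follow this order, as given below. Of the 3 CD127- LMPP arrays, 2 were slightly above the limit. Gbp11, annotated as a transcribed pseudogene in RefSeq, read 5.27 and 5.91 in Ly6D+ CLPs, 6.15 and 5.15 in Ly6D- CLPs, 5.64, 5.07 and 5.44 in CD127+ LMPPs, and 2.33, 3.90 and 4.58 in CD127- LMPPs. On the gene value the first 3 groups overlapped and lay above the fourth. Not all of its probe sets showed that overlap, as given below.

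**Figure D1:**
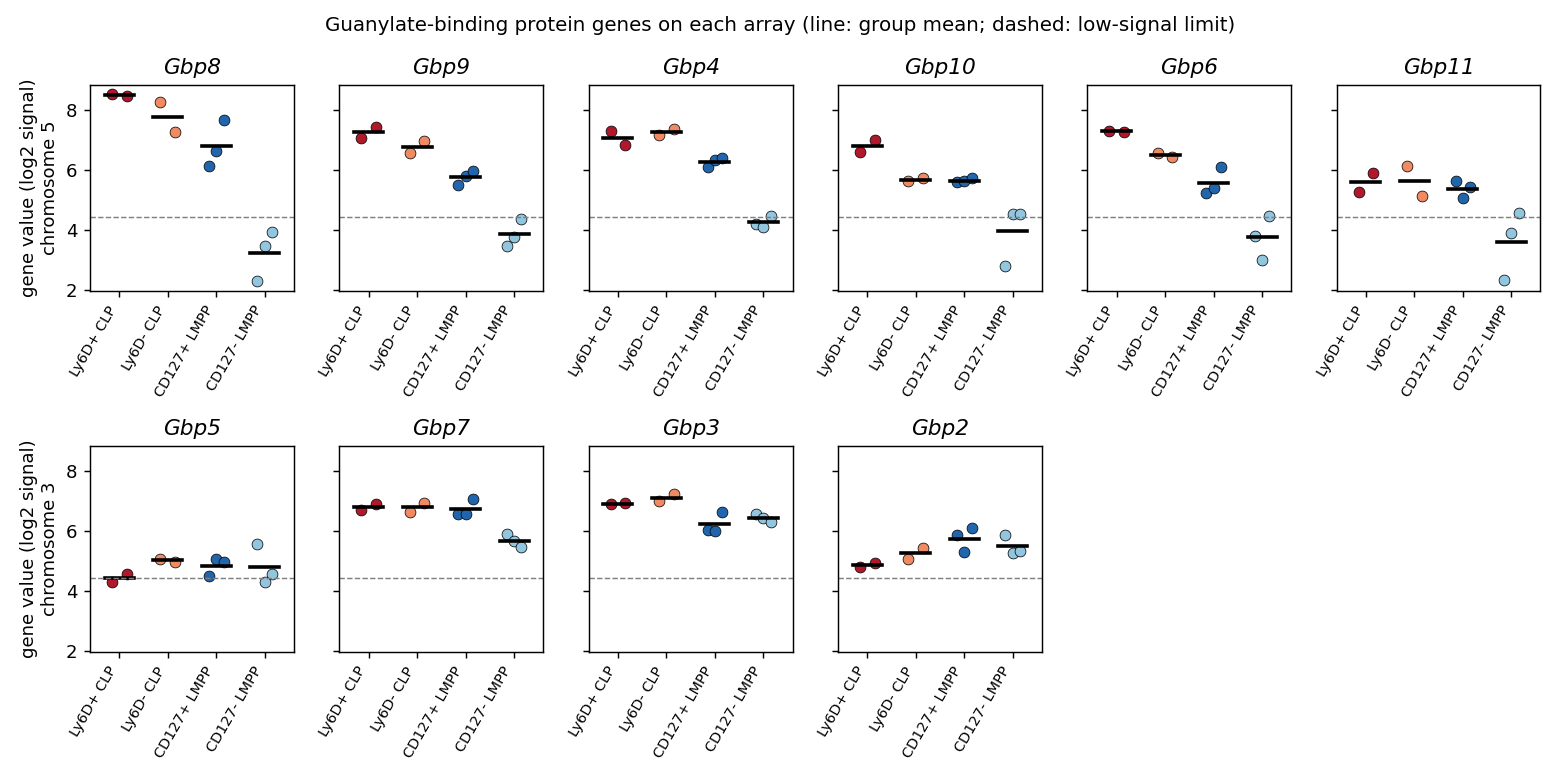
Gene values (log2 signal, vertical axis) of the 10 members on each array, with points for arrays, a bar for each group mean and a dashed line at the low-signal limit of 4.43. The 6 chromosome 5 members in the upper row have means under the limit in CD127- LMPPs and above it in the other groups, while of the chromosome 3 members only Gbp7 has its CD127- LMPP arrays below all others.

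Averaged over the 6 chromosome 5 members, the arrays read 7.02 and 7.16 in Ly6D+ CLPs, 6.72 and 6.48 in Ly6D- CLPs, 5.70, 5.81 and 6.22 in CD127+ LMPPs, and 3.15, 3.79 and 4.40 in CD127- LMPPs. All 6 genes were above the limit on each array of the first 3 groups. On the CD127- LMPP arrays 0, 1 and 4 of the 6 were. The CD127- LMPP arrays were thus spread over more than 1 log2 unit in this cluster, with the first array lowest. The 4 chromosome 3 members averaged 5.67 and 5.82 in Ly6D+ CLPs, 5.94 and 6.14 in Ly6D- CLPs, 5.73, 5.73 and 6.19 in CD127+ LMPPs, and 5.97, 5.41 and 5.41 in CD127- LMPPs. The CLP groups did not overlap each other, and each overlapped both LMPP groups.

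The 4 members on chromosome 3 did not share 1 pattern. Gbp7, which in mouse macrophages has been linked to assembly of the phagocyte oxidase, read 6.71 and 6.90 in Ly6D+ CLPs, 6.64 and 6.94 in Ly6D- CLPs, 6.56, 6.56 and 7.05 in CD127+ LMPPs, and 5.89, 5.67 and 5.47 in CD127- LMPPs. It had the same low group as the chromosome 5 members, but the other 3 groups overlapped and all 10 arrays were above the limit. Gbp3 read 6.89 and 6.93 in Ly6D+ CLPs, 6.99 and 7.22 in Ly6D- CLPs, 6.03, 6.01 and 6.64 in CD127+ LMPPs, and 6.55, 6.43 and 6.29 in CD127- LMPPs. Here both CLP groups lay above both LMPP groups, which overlapped. Gbp2, which coats vacuoles of Toxoplasma in mouse cells, averaged 4.85 ± 0.09 in Ly6D+ CLPs, 5.25 ± 0.26 in Ly6D- CLPs (SD, n = 2 each), 5.74 ± 0.42 in CD127+ LMPPs and 5.48 ± 0.32 in CD127- LMPPs (SD, n = 3 each). Both Ly6D+ CLP arrays were below all others in Gbp2. Gbp5, an activator of the NLRP3 inflammasome, averaged 4.42 ± 0.18 in Ly6D+ CLPs, 5.01 ± 0.09 in Ly6D- CLPs, 4.84 ± 0.31 in CD127+ LMPPs and 4.80 ± 0.68 in CD127- LMPPs, the first of these under the limit. Gbp2b, a family gene outside the member list that the array annotates as Gbp1, was under the limit in all 4 groups, with means between 3.02 and 3.48.

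Promoters were looked up because interferon acts on such genes through short promoter elements. They are shown for the chromosome 3 members only, since the reference sequences used held no promoter of a chromosome 5 member. The promoters of the chromosome 5 members were therefore not examined. The sequences are from RefSeq on GRCm38.p6, plus strand, 5′ to 3′, and cover the 250 bases before the annotated start. Capitals mark matches to GAAANNGAAA on either strand, the core of an interferon-stimulated response element, and the 4 genes that matched the table were Gbp2, Gbp3, Gbp5 and Gbp7.
Gbp5 (chr3:142496684-142496933): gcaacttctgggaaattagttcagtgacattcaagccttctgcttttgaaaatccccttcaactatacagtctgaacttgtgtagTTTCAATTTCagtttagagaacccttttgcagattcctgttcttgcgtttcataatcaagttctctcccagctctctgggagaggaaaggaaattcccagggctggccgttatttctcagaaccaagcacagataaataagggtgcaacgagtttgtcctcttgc
Gbp7 (chr3:142530086-142530335): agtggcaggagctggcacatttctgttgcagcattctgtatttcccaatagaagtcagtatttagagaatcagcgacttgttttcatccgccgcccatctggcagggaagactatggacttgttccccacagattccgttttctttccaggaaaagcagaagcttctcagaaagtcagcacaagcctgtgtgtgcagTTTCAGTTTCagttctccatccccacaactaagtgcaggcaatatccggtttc
Gbp3 (chr3:142559794-142560043): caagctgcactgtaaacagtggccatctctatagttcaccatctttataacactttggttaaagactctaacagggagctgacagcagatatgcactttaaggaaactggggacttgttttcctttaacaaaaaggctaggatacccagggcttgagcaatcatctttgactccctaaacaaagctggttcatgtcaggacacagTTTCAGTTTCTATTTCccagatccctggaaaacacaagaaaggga
Gbp2 (chr3:142620413-142620662): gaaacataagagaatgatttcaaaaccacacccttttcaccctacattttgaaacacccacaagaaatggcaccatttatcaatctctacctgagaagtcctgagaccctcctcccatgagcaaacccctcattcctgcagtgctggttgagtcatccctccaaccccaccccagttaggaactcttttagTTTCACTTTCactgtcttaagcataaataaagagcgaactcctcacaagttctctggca
The match began 165 bases before the start of Gbp5, 53 before that of Gbp7, 45 before that of Gbp3 and 59 before that of Gbp2. In Gbp3 a second match overlapped the first, and the other annotated start of Gbp3 had none in its window. GAAANNGAAA occurred on either strand in 3.44% of 32851 mouse promoter windows that reached from 250 bases before to 50 after a start. TTCNNNGAA, the letters of a gamma-activated site, read the same on both strands. It occurred in 8.30% of those windows, with 2 matches in Gbp5, 2 in Gbp7 and none in either window of Gbp3 or in that of Gbp2. No TTCNNNGAA match overlapped a GAAANNGAAA match in these windows. A match is a description of the letters and not a measurement of binding. Gbp7, which had both kinds of match, passed the test against CD127- LMPPs as given below, and Gbp5, which also had both, did not.

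In Ly6D+ CLPs compared with CD127- LMPPs, 7 of the 10 members were higher past the threshold (limma, adjusted p under 0.05), where 3.93% of all 23152 genes were. These 7 were the 6 chromosome 5 members and Gbp7. The 4 comparisons of CLPs with LMPPs share arrays with the comparison that chose the family. Gbp8 differed by 5.28 log2 (SE 0.51, adjusted p = 0.000144), at least 16.8-fold when CD127- LMPPs are set at the low-signal limit. Gbp6 differed by 3.55 (SE 0.37, adjusted p = 0.000227), at least 7.30-fold. Gbp9 differed by 3.39 (SE 0.26, adjusted p = 3.16e-05), at least 7.12-fold.

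The remaining differences in that comparison were smaller. Gbp10 differed by 2.85 log2 (SE 0.42, adjusted p = 0.00181), Gbp4 by 2.81 (SE 0.19, adjusted p = 1.25e-05) and Gbp11 by 1.99 (SE 0.53, adjusted p = 0.0369). Gbp7, above the limit in both groups, differed by 1.13 (SE 0.20, adjusted p = 0.0048), which is 2.19-fold. Gbp3 was 0.49 higher (SE 0.20, adjusted p = 0.16), Gbp5 was 0.38 lower on the log2 scale (difference -0.38, SE 0.32, adjusted p = 0.516) and Gbp2 had a difference of -0.63 (SE 0.25, adjusted p = 0.149), none past the threshold. The median difference of the 10 members was 2.40 log2, or 1.77 with group means under the limit raised to it, against 0.02 over all genes. The call of Gbp11 was lost without either Ly6D+ CLP array, the first or the third CD127+ LMPP array, or the first or second CD127- LMPP array. Without the second Ly6D+ CLP array that of Gbp7 was lost too, and 5 members were called.

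Ly6D- CLPs compared with CD127- LMPPs gave the same 7 members as higher, where 2.93% of all genes were. Gbp8 differed by 4.55 log2 (SE 0.51, adjusted p = 0.000812), at least 10.1-fold, and Gbp4 by 3.00 (SE 0.19, adjusted p = 2.18e-05), at least 7.09-fold. Differences of 2.89 in Gbp9 (SE 0.26, adjusted p = 0.000222) and 2.74 in Gbp6 (SE 0.37, adjusted p = 0.00192) came next. Gbp11 at 2.04 (adjusted p = 0.0441), Gbp10 at 1.72 (adjusted p = 0.0329) and Gbp7 at 1.12 (adjusted p = 0.00822) were closer to the threshold. Without the second Ly6D- CLP array, Gbp7, Gbp10 and Gbp11 were no longer called, which left 4 members. Gbp10 was also lost without the first Ly6D- CLP or the third CD127+ LMPP array, and Gbp11 without any array but the third CD127- LMPP array. Gbp3 was 0.69 higher (adjusted p = 0.067), and its arrays did not overlap those of CD127- LMPPs. The median over the members was 1.88, or 1.23 with means under the limit raised to it, against 0.00 over all genes.

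**Figure D2:**
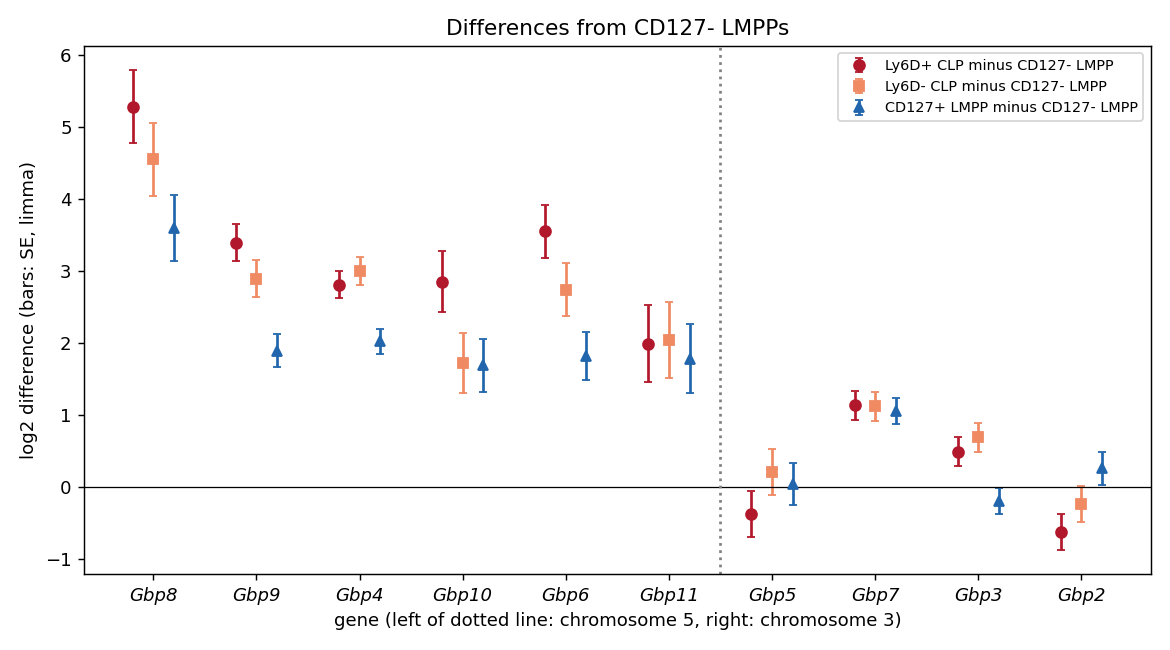
Log2 differences of the 10 members (vertical axis) between Ly6D+ CLPs, Ly6D- CLPs and CD127+ LMPPs and the shared CD127- LMPP arrays, with bars for the limma SE. The chromosome 5 members left of the dotted line lie between 1.69 and 5.28 in all 3 comparisons, Gbp7 lies between 1.05 and 1.13, and Gbp2, Gbp3 and Gbp5 lie between -0.63 and 0.69.

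CD127+ LMPPs compared with CD127- LMPPs is the comparison that chose the family. There 5 of the 10 members, Gbp4, Gbp6, Gbp7, Gbp8 and Gbp9, were past the threshold upwards, where 0.881% of all genes were, and the arrays of 7 members did not overlap, where 8.46% of all genes did so upwards. Nothing is read from these counts, since the members were taken up for a difference in this comparison. The differences were 3.59 log2 in Gbp8 (SE 0.46), 2.02 in Gbp4 (SE 0.17), 1.89 in Gbp9 (SE 0.23), 1.82 in Gbp6 (SE 0.33), 1.78 in Gbp11 (SE 0.48), 1.69 in Gbp10 (SE 0.37) and 1.05 in Gbp7 (SE 0.18). Gbp2 at 0.26, Gbp5 at 0.04 and Gbp3 at -0.19 were close to 0. The median of the 10 was 1.73, or 1.09 with means under the limit raised to it. Without the third CD127+ LMPP array 3 members, Gbp4, Gbp8 and Gbp9, were past the threshold. Gbp6 was also not past it without the second CD127+ or the first CD127- LMPP array or in a fit of the compared arrays alone, and Gbp7 without the second or the third CD127- LMPP array. Gbp10 and Gbp11, whose CD127- LMPP arrays were the most spread, had SDs of 1.00 and 1.16 there.

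Between CLPs and CD127+ LMPPs no member differed by more than 1.73 log2. Ly6D+ CLPs were higher in 3 members, Gbp6 by 1.73 log2 (SE 0.37, adjusted p = 0.0262), Gbp9 by 1.50 (SE 0.26, adjusted p = 0.00976) and Gbp4 by 0.79 (SE 0.19, adjusted p = 0.0443), where 1.28% of all genes were. Gbp8 was 1.69 higher (SE 0.51, adjusted p = 0.0926) with no overlap of the arrays, and Gbp10 was 1.16 higher (SE 0.42, adjusted p = 0.156). Gbp2 had a difference of -0.89 (SE 0.25, adjusted p = 0.0796). None of the 3 calls was left without the second Ly6D+ CLP array, and that of Gbp9 alone was left without the first Ly6D+ CLP array or without the first CD127+ LMPP array. Without the second CD127+ LMPP array Gbp9 was again left, and Gbp2 was called lower. The call of Gbp4 was also lost without the third CD127+ LMPP array, where Gbp3 was called, and without the first CD127- LMPP array, where Gbp10 was called. With the median of a gene's probe sets as its value, 1 member was called, Gbp9.

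In Ly6D- CLPs compared with CD127+ LMPPs, 1 member was called, Gbp4, which was 0.98 log2 higher (SE 0.19, adjusted p = 0.0307), where 0.635% of all genes were higher. This call was lost with the median of its probe sets and without any 1 of the 5 arrays compared, although without the third CD127+ LMPP array Gbp3 was called in its place. Gbp9 was 1.00 higher (SE 0.26, adjusted p = 0.0719), Gbp3 was 0.88 higher (SE 0.20, adjusted p = 0.0523) and Gbp8 was 0.96 higher (SE 0.51, adjusted p = 0.357), with overlapping arrays only in Gbp8. Gbp10, whose means in these groups were 1.72 and 1.69 above that in CD127- LMPPs, had a difference of 0.03 (SE 0.42) here. The 6 probe sets of Gbp10 were uneven in this comparison, from -2.26 to 0.79 with a median of 0.52.

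Ly6D+ and Ly6D- CLPs share no array with the comparison that chose the family. No member passed the threshold between them in limma, where 0.0993% of all 23152 genes did in either direction, and 1 member, against 9.1% of all genes, had an unadjusted p under 0.05. Gbp10 was 1.13 log2 higher in Ly6D+ CLPs (SE 0.46, adjusted p = 0.507), Gbp6 was 0.81 higher (SE 0.40, adjusted p = 0.591) and Gbp8 was 0.73 higher (SE 0.56, adjusted p = 0.745). The 6 probe sets of Gbp10 differed by 0.09 to 3.44, with a median of 0.52. Gbp5 had a difference of -0.59 (SE 0.35, adjusted p = 0.659). With 2 arrays a group, standard errors of up to 0.59 log2 leave differences of the size seen in Gbp10 unresolved.

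The probe sets were then read singly, because the paralogs are similar and the probe sequences are not used here. Whether RNA of 1 member binds probes of another was not tested. The members had 62 probe sets of their own symbol, 21 for the chromosome 5 genes and 41 for the chromosome 3 genes, and 53 exceeded the probe-set limit of 4.93 in at least 1 group. Another 3 probe sets that carry both Gbp2 and Gbp1 were left out. In Ly6D+ CLPs compared with CD127- LMPPs, 18 of the 21 chromosome 5 probe sets were higher with no overlap, and so were 10 of the 41 on chromosome 3, where 17.1% of all probe sets were. In CD127+ LMPPs compared with CD127- LMPPs these counts were 16 of 21 and 6 of 41, where 6.13% of all probe sets were, and nothing is read from them because that comparison chose the family.

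All 3 probe sets of Gbp8 were higher with no overlap, by 4.88 to 5.92 log2 in Ly6D+ CLPs and by 3.15 to 4.26 in CD127+ LMPPs, each against CD127- LMPPs. The 4 probe sets of Gbp9 differed by 2.20 to 3.92 in the first of these comparisons, also with no overlap. The probe sets of Gbp4 were less even, since 3 of 4 did not overlap there and the differences ranged from 0.72 to 4.60. The 6 probe sets of Gbp10 differed by 2.17 to 3.66, 5 of them with no overlap, and 1 was under the probe-set limit in all groups. The 9 probe sets of Gbp7 differed by 0.09 to 1.87, with 7 not overlapping. In Gbp10, 1 probe set gave both the -2.26 in Ly6D- CLPs against CD127+ LMPPs and the 3.44 between the CLP groups. Gbp11 had 3 probe sets, 1 of them under the probe-set limit in all groups. The other 2 were higher with no overlap against CD127+ LMPPs, by 0.90 and 1.11 in Ly6D- CLPs and by 0.68 and 0.83 in Ly6D+ CLPs. Of all probe sets 16.1% and 16.2% were.

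Gbp3 was divided among its 11 probe sets. The probe set with the largest difference read 8.24 and 8.98 in Ly6D+ CLPs and 8.39 and 7.99 in Ly6D- CLPs, against 6.29, 5.24 and 6.15 in CD127+ LMPPs and 5.83, 4.77 and 5.91 in CD127- LMPPs. Both CLP groups lay well above both LMPP groups on it, by 3.10 log2 for Ly6D+ CLPs against CD127- LMPPs. Its other probe sets differed by -0.90 to 1.66 in that comparison, and the median of all 11 was 0.24. In that comparison the gene value of Gbp3 thus averages 1 probe set with a large difference and 10 with smaller differences of either sign. In Ly6D- CLPs against CD127+ LMPPs 10 of the 11 were higher, with a median of 0.81. Of the 11, 7 were higher with no overlap there, where 16.1% of all probe sets were. Gbp5 had 14 probe sets with differences of -2.70 to 0.68 in Ly6D+ CLPs against CD127- LMPPs, of which 9 were above the probe-set limit.

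**Figure D3:**
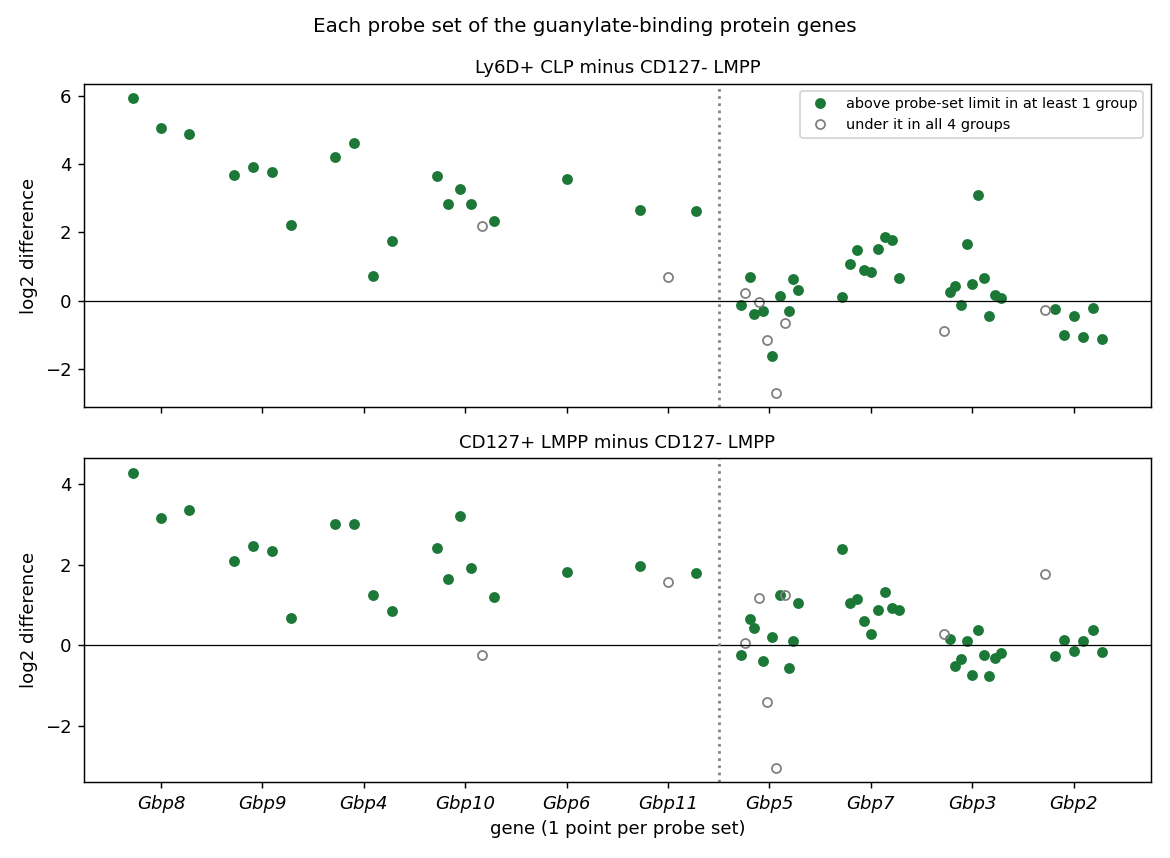
Log2 difference (vertical axis) of each probe set of the 10 members, with chromosome 5 genes left of the dotted line, for Ly6D+ CLPs minus CD127- LMPPs (top) and CD127+ LMPPs minus CD127- LMPPs (bottom). Filled points exceed the probe-set limit in at least 1 group, all 21 chromosome 5 probe sets lie above 0 in the top panel, and 1 probe set of Gbp3 stands at 3.10.

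By the order of protein-coding genes on GRCm38.p6, Gbp8, Gbp9, Gbp4, Gbp10 and Gbp6 follow each other on chromosome 5. Genes that are not protein-coding were left out of that order, so Gbp11 was not placed. Neighbouring genes were looked up after the members' values had been seen. Abcg3, an ABC transporter gene next to Gbp8, averaged 5.01 ± 0.15 in Ly6D+ CLPs, 5.15 ± 0.14 in Ly6D- CLPs (SD, n = 2 each), 4.45 ± 0.19 in CD127+ LMPPs and 3.53 ± 0.28 in CD127- LMPPs (SD, n = 3 each). It differed in the same direction as the cluster, by 1.48 log2 (adjusted p = 0.000885) in Ly6D+ CLPs and 1.62 (adjusted p = 0.00105) in Ly6D- CLPs against CD127- LMPPs. The mean of Abcg3 was under the low-signal limit in CD127- LMPPs and only just above it in CD127+ LMPPs. Part of each difference from CD127- LMPPs therefore lies below that limit. At the other end Lrrc8b and Lrrc8c, subunits of volume-regulated anion channels, passed no test, with differences from CD127- LMPPs of -0.10 and 0.24 in Ly6D+ CLPs. On chromosome 3 the order is Gbp5, Gbp7, Gbp3, Gbp2b and Gbp2. The next gene, Kyat3, an aminotransferase gene that the array names Ccbl2, was lower in Ly6D+ CLPs than in CD127- LMPPs, with a log2 difference of -1.28 (adjusted p = 0.0101).

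The interferon pathway around the family was described from 4 lists. Of 13 measured genes of interferon gamma signalling, 1 was higher and 1 was lower in Ly6D+ CLPs than in CD127- LMPPs, where 3.93% of all genes were higher and 6.94% lower, and the median difference was 0.18 log2. Jak1, the kinase shared by interferon receptors, was 0.49 higher (adjusted p = 0.0425), and Ifngr2, a chain of the interferon gamma receptor, had a difference of -0.88 (adjusted p = 0.0117). In Ly6D- CLPs Irf1, a transcription factor induced by interferon gamma, was also higher than in CD127- LMPPs, by 0.65 (adjusted p = 0.0316), beside Jak1 at 0.51 (adjusted p = 0.0471). Ifngr2 was there lower as well, at -0.86 (adjusted p = 0.0184).

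Of 26 other targets of interferon gamma, none was higher and 3 were lower in Ly6D+ CLPs than in CD127- LMPPs, where 3.93% of all genes were higher and 6.94% lower, and the median was -0.09. An unadjusted p under 0.05 was found in 10 of the 26, against 24.9% of all genes. The 3 were Psmb10, an immunoproteasome subunit, at -1.63 (adjusted p = 0.000258), Serpina3g, a serpin, at -1.50 (adjusted p = 0.0137) and Casp1, the inflammasome protease, at -1.46 (adjusted p = 0.002). These 3 genes were also lower in Ly6D- CLPs, where 4.17% of all genes were, at -1.13, -1.35 and -1.14, while Cd74, the class II invariant chain, was higher by 1.05 (adjusted p = 0.0376). The 10 measured immunity-related GTPases belong to a family of which several members are induced by interferon and act on pathogen vacuoles. Not every listed gene is known to be induced by interferon, and Irgq is among those that are not. In Ly6D+ CLPs Irgm2 at -0.92 (adjusted p = 0.00937) and Gm12250 at -0.96 (adjusted p = 0.0305) were lower, and Irgq was higher by 0.82 (adjusted p = 0.0214). None of the 10 passed the test in Ly6D- CLPs against CD127- LMPPs, and 1 of them, against 22% of all genes, had an unadjusted p under 0.05 in limma.

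Of the 22 genes of the type I interferon response list, 3 were higher and 1 was lower in Ly6D+ CLPs than in CD127- LMPPs, with a median of 0.26 log2, and 5 were higher and 1 was lower in Ly6D- CLPs, with a median of 0.49. Over all genes 3.93% were higher and 6.94% lower in the first comparison, and 2.93% higher and 4.17% lower in the second. The first set was Ifi44, Mx2 and Oas2, and the second held Rsad2 and Ddx58 besides. Ifi44 was higher by 1.16 (adjusted p = 0.00145) in Ly6D+ CLPs and by 0.99 (adjusted p = 0.00582) in Ly6D- CLPs, and the antiviral GTPase gene Mx2 was higher by 0.85 (adjusted p = 0.0211) and 0.78 (adjusted p = 0.0409). Bst2, which encodes tetherin, was lower in both, at -0.56 (adjusted p = 0.0463) and -0.80 (adjusted p = 0.0138). Against CD127+ LMPPs, Ly6D- CLPs were lower in 2 genes of this list, Ifit3 at -2.03 (adjusted p = 0.0298) and Bst2 at -0.71 (adjusted p = 0.0483), and in the interferon gamma target Psmb10 at -0.96 (adjusted p = 0.0248). Ly6D+ CLPs were there lower in Psmb10 at -1.47 (adjusted p = 0.0016), Gm12250 at -1.15 (adjusted p = 0.0287) and Irgm2 at -0.99 (adjusted p = 0.0145). Of all genes, 1.42% were lower in Ly6D- CLPs than in CD127+ LMPPs, and 2.75% were lower in Ly6D+ CLPs than in CD127+ LMPPs.

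Between the LMPP groups 4 genes of the type I interferon response list were higher in CD127+ cells, Oas2 by 1.09, Ifi44 by 0.90, Rtp4 by 0.87 and Irf7, the transcription factor of type I interferon induction, by 0.74, where 0.881% of all genes were. Of the signalling list Irf8, a transcription factor of myeloid and lymphoid fate, at -1.03 and Ifngr2 at -0.83 were lower in CD127+ cells, where 0.592% of all genes were. The median over the type I list there was 0.48, against -0.01 over all genes.

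**Figure D4:**
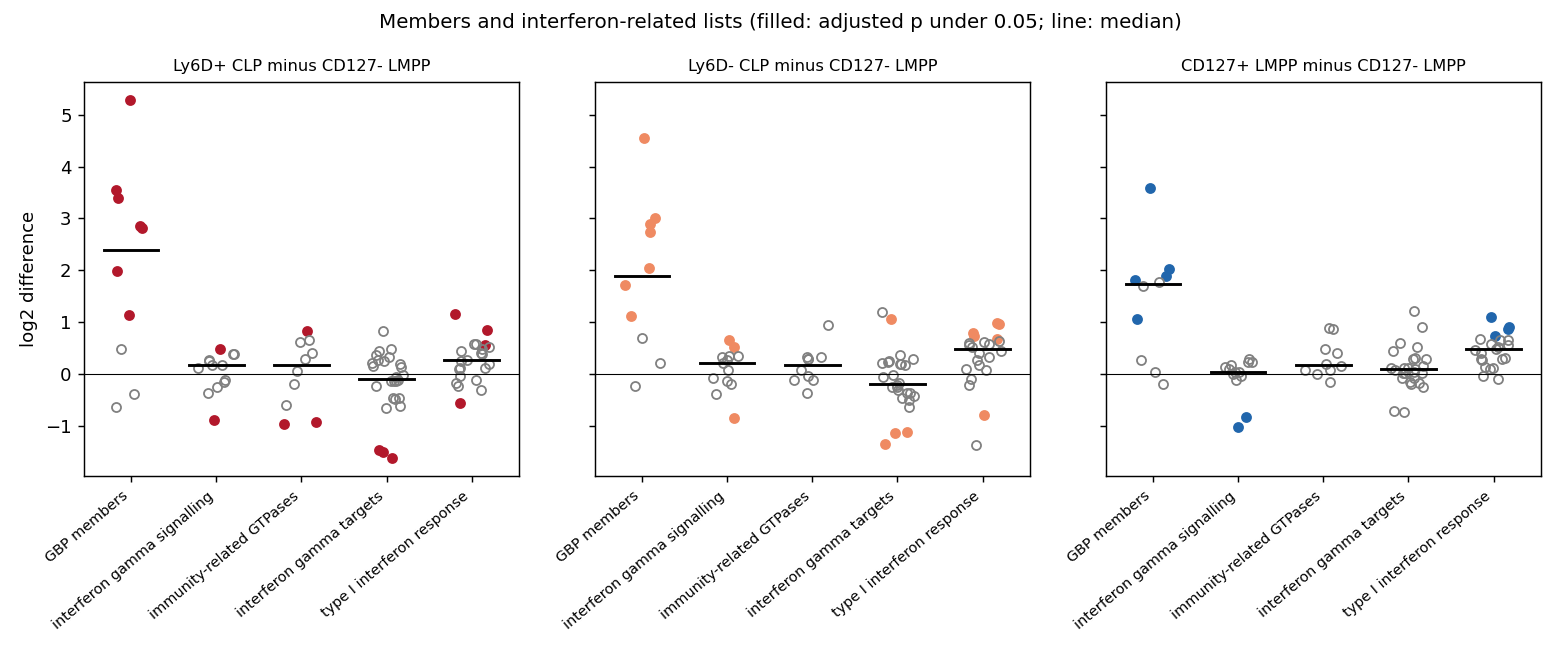
Log2 difference (vertical axis) of each gene of the GBP family and of 4 interferon lists from CD127- LMPPs, for Ly6D+ CLPs, Ly6D- CLPs and CD127+ LMPPs, with lines at list medians and filled points for genes with limma adjusted p under 0.05. The GBP medians are 2.40, 1.88 and 1.73 (1.77, 1.23 and 1.09 with means under the low-signal limit raised to it), and the medians of the other lists lie between -0.19 and 0.49.

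Over the 10 arrays, the values of Gbp9 followed those of Gbp8 most closely among the members, with a Pearson r of 0.97, and Gbp4 and Gbp6 had 0.95, Gbp10 0.93, Gbp11 0.89 and Gbp7 0.88. Gbp3 had 0.49, Gbp5 -0.20 and Gbp2 -0.40. The arrays share 4 sorted groups, so these values mainly describe how the group means are ordered, and no p is given. Among 709 other genes with a group mean above the limit and an SD of at least 0.5 over the arrays, those most like the mean of the centred members were Fcrl1 with r of 0.989, Clnk with 0.987, Gem with 0.982, and Cmah and Il18rap with 0.976. Fcrl1, an Fc receptor-like gene of B lineage cells, averaged 6.40 in Ly6D+ CLPs, 6.22 in Ly6D- CLPs, 5.89 in CD127+ LMPPs and 5.01 in CD127- LMPPs. It was also the gene most like Gbp8, with r of 0.992, followed by Fam167a with 0.982, Gimap5 with 0.977, H2-Q6 with 0.974 and Gem with 0.972. Cmah, which encodes the enzyme that hydroxylates sialic acid, had the widest range of group means among these genes, at 9.11 in Ly6D+ CLPs, against 6.12 in CD127- LMPPs.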

How the data were processed

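Total RNA of 4 sorted groups was measured on 10 Affymetrix arrays. The authors' deposited values, 269751 probe sets by 10 arrays, span 0.20 to 14.79 and were taken for log2 signals because of that span. No label or header gives the log base. Per the submitters' processing notes, Affymetrix Power Tools was used. The summary method, normalization and genome build: not given in the sources used here. Array quartiles differed by at most 0.125, so no normalization was added. Arrays of a group correlated at 0.972 to 0.986 over all genes. The 233753 probe sets with 1 symbol in the platform annotation were averaged into 23152 genes. Another 5106 with several symbols and 30892 with none stayed out.

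Differences came from limma 3.58.1 in R 4.3.3, fitting 1 mean per group over all 10 arrays, default empirical Bayes settings and Benjamini-Hochberg adjustment over 23152 genes at 0.05. The steps were tested on simulated data. The low-signal limit is the 95th percentile of 1423 sensory receptor genes (2537 probe sets for the probe-set limit). Tables and figures used Python 3.11.15 with matplotlib 3.10.9, pandas 2.3.3 and numpy 2.4.6. Alternatives covered the normalization, the gene summary, the filter, the fit, the replicate number as a block and each array left out. The family, the gene lists and the tests were chosen with earlier results of these data known. All 10 members were named. From each interferon list, up to 4 genes past the threshold in a comparison were named, or else the gene of largest difference. Likeness took the 5 genes of highest r, leaving out predicted and small RNA genes. Gene order, taken over protein-coding genes only, and promoter sequences are those of RefSeq on GRCm38.p6.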

Additional observations from a re-analysis of the deposited data

How the results depend on the processing

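Gbp4, Gbp6, Gbp8 and Gbp9 were called in both comparisons of CLPs with CD127- LMPPs under all 19 alternatives, and Gbp10 was too for Ly6D+ CLPs. No called result changed direction. With arrays left out in turn, the count of members called ranged from 3 to 6 for CD127+ against CD127- LMPPs, from 0 to 1 for Ly6D- CLPs and from 0 to 3 for Ly6D+ CLPs against CD127+ LMPPs, from 4 to 7 for Ly6D- CLPs and from 5 to 7 for Ly6D+ CLPs against CD127- LMPPs, and stayed 0 between the CLP groups. For Ly6D- CLPs against CD127+ LMPPs, 2 members were called with median centring, 3 with the filter on dim genes (Gbp3, Gbp4 and Gbp9), 3 with trend and robust settings, and 0 with the median of probe sets or the compared arrays alone, against 1 in the main analysis. For Ly6D+ CLPs against CD127+ LMPPs, 1 was called with the median of probe sets, 6 with the filter (5 higher, with Gbp2 lower) and 5 with trend and robust settings (4 higher, with Gbp2 lower), against 3. The filter left 13369 genes. The cause of the other changes was not tested. Over all genes, the number called ranged over the 19 alternatives from 160 to 581 for CD127+ against CD127- LMPPs (341 in the main analysis), from 22 to 1398 for Ly6D- CLPs (476) and 194 to 1954 for Ly6D+ CLPs (933) against CD127+ LMPPs, from 664 to 2551 for Ly6D- CLPs (1643) and 1001 to 3510 for Ly6D+ CLPs (2517) against CD127- LMPPs, and from 1 to 78 between the CLP groups (23). Titles give the groups shared replicate numbers. Deviations from the group means correlated at -0.047 to 0.182 over 13 same-numbered pairs, against -0.182 to 0.182 over 24 pairs of unlike number. In groups of 2 arrays the deviations mirror each other, so these correlations cannot tell whether same-numbered arrays share a sort. With the replicate block, 5 members were called for CD127+ against CD127- LMPPs, 1 (Gbp9) for Ly6D- CLPs and 3 (with Gbp8 in place of Gbp4) for Ly6D+ CLPs against CD127+ LMPPs, 6 for Ly6D- CLPs and 7 for Ly6D+ CLPs against CD127- LMPPs, and 0 between the CLP groups. Signal limits what can be said of CD127- LMPPs, where the 6 chromosome 5 members had means under the low-signal limit, so folds against them are bounds. Of 950 single-gene differences under the alternatives in the 5 tested comparisons, 855 kept their direction and side of the threshold, 52 lost the call, 24 gained it, and 19 changed sign without being called either way. Of 190 in the comparison that chose the family, 2 moved by more than the replicate spread.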
